A study of Mus musculus with 622 samples.

Results

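Zinc handling genes were described in single cells of the mouse pancreatic islet. The 7 genes were chosen by name, out of 44448 genes in the deposited table. They are the Slc30 zinc transporters Slc30a8, Slc30a5, Slc30a7 and Slc30a9, the importer Slc39a14, and the metallothioneins Mt1 and Mt2. The series holds 622 single cells from islets of wild-type C57BL/6 mice, captured on the Fluidigm C1 microfluidic system, which isolates one cell per chamber and makes its cDNA there with the SMARTer kit. No treatment, age, sex, number of animals or chip is given in the labels, so all cells formed 1 group and 1 sample. No test between classes of cells was therefore made, and spreads and intervals below run over cells only.

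Insulin is stored in dense granules as crystals that hold zinc, and the transporter ZnT8, encoded by Slc30a8, moves zinc from the cytosol into those granules. Most transporters of the Slc30 family take zinc out of the cytosol, into organelles or out of the cell, and those of the Slc39 family bring it in. Metallothioneins are small cytosolic proteins rich in cysteine that bind zinc and copper, and their genes are well known for induction by zinc and by stress through the metal-sensing factor MTF1.

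Cells in which fewer than 1000 genes reached 1 RPKM were left out, and 593 were kept. RPKM is the read count of a gene scaled by its length and by the reads of the cell. A cell was put in the class of the hormone that held 90% or more of its RPKM of Ins1, Ins2, Gcg, Sst and Ppy. This gave 395 insulin, 33 glucagon, 13 somatostatin and 11 PP (pancreatic polypeptide) cells, and 141 mixed cells in which no hormone reached that share. The median depth of the 593 cells was 1100006 reads and the range ran from 135831 to 6112550 reads. The deposited columns were of 2 kinds, 359 written in full precision and 263 rounded to 4 decimals, and both kinds held cells of every class. The kinds differed in depth and in genes detected (among insulin cells, a median of 5707.5 genes in full-precision and 4140 in rounded columns), so the main values of Slc30a8, Mt1 and Mt2 are also given within each kind, and those of other genes where noted.

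Markers that the class rule did not use were checked in each class. The beta cell genes Ucn3 and G6pc2 averaged 446 and 1040 RPKM in insulin cells, against 1.26 and 43.5 RPKM in glucagon cells. The delta cell factor Hhex averaged 259 RPKM in somatostatin cells and was at 1 RPKM or more in 11 of 13. The alpha cell factor Irx2 was at 1 RPKM or more in 19 of 33 glucagon cells, and Ttr, which alpha cells hold at high levels, averaged 15079 RPKM there against 585 RPKM in insulin cells. The PP class had no marker of its own beyond the peptides. At least 3 markers of 1 non-endocrine type stood at 10 RPKM or more in 17 insulin, 2 glucagon, 1 somatostatin, 4 PP and 8 mixed cells.

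Mt1 and Mt2 are neighbouring genes, and their coding sequences are shown because RPKM of both rests on telling their reads apart. Both are read from GENCODE M21 on GRCm38, plus strand, start codon to stop codon with introns removed, and the capitals mark the cysteine codons. Mt1 spans chr8:94179311-94180193 and Mt2 spans chr8:94172848-94173427.
Mt1: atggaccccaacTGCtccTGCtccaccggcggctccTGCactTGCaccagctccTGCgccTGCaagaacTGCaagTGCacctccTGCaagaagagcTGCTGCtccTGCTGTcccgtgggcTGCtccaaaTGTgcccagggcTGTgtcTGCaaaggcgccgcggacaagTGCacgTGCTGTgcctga
Mt2: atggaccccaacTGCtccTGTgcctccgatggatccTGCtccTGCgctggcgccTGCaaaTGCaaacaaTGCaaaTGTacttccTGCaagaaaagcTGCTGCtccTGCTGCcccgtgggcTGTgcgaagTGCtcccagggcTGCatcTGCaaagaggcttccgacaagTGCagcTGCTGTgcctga

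Of 61 codons before the stop, 20 are cysteine codons in each gene, and all 20 lie at the same places. The coding sequences are the same at 148 of 186 bases (79.6%), and the longest stretch they share without a mismatch is 20 bases, also when the whole transcripts of 549 and 511 bases are compared. How reads that matched both genes were counted is not given in the sources used here. The genes lie 5316 bases apart.

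Slc30a8 RNA was abundant in insulin and glucagon cells and low in nearly all somatostatin and PP cells. Insulin cells averaged 450 RPKM with a median of 363 RPKM, and the values ran from 0 to 2942 RPKM. The gene was at 1 RPKM or more in 393 of 395 insulin cells (99.5%, 95% exact Clopper-Pearson interval 98.2 to 99.9%, for counting error only). Glucagon cells averaged 719 RPKM, with a median of 601 RPKM and a range from 98.7 to 1930 RPKM over 33 cells. All 33 glucagon cells therefore lay inside the range of insulin cells, and 24 of them lay above the insulin median.

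The 13 somatostatin cells held 0, 0.291, 0.769, 1.07, 1.32, 1.44, 1.55, 1.85, 2.42, 2.65, 3.02, 6.72 and 242 RPKM of Slc30a8. The 11 PP cells held 0 in 3 cells, then 0.228, 0.257, 0.274, 0.274, 1.38, 4.89, 36.1 and 107 RPKM. No somatostatin or PP cell reached the insulin median, and 12 of 13 and 11 of 11 lay below the lower quartile of insulin cells (185 RPKM). A few insulin cells reached as low, so the ranges overlapped. The ordering by mean was glucagon, insulin, somatostatin, PP. The difference between glucagon and insulin cells was smaller than 1 SD over cells in either class (450 and 376 RPKM), and the values of somatostatin and PP cells ran through each other.

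Class means were set against insulin cells as a log2 ratio of mean RPKM plus 1, and a gene was called different at a ratio of at least 2-fold either way. The log2 ratio of Slc30a8 was -4.40 in somatostatin cells, where 26.0% of all genes compared were called lower and 21.2% higher. It was -4.94 in PP cells, where 30.4% of genes were called lower and 16.8% higher. Only 0.357% and 0.323% of the genes compared had a ratio as low. With RPKM rescaled to the reads outside hormone and mitochondrial genes, the median log2 ratio of all genes in somatostatin cells moved from -0.02 to -0.33 and the genes called became 15.8% higher and 31.8% lower, while Slc30a8 stood at -4.90 there and at -4.93 in PP cells. In glucagon cells the log2 ratio was 0.67 and was not called, with 10.7% of genes called higher and 21.1% lower.

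Within the full-precision columns the log2 ratios of Slc30a8 were 0.96 in glucagon, -7.59 in somatostatin and -7.85 in PP cells. Within the rounded columns they were 0.30, -3.62 and -3.96. The directions were the same in both kinds, and the sizes in somatostatin and PP cells rested on the cells at 242 and at 107 RPKM, both in rounded columns. Without the highest somatostatin and the highest PP cell the ratios were -7.27 and -6.40. All insulin cells were kept, so this step could only lower the ratios.

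The low Slc30a8 values of somatostatin and PP cells were compared with the insulin RNA those cells held. Somatostatin cells held a median of 1021 RPKM of Ins1 plus Ins2 and PP cells 392 RPKM, against 357025 RPKM in insulin cells. At the ratio of Slc30a8 to insulin RNA seen in insulin cells, these medians would carry 1.23 and 0.473 RPKM of Slc30a8. The measured medians were 1.55 and 0.274 RPKM, with 9 of 13 and 3 of 11 cells above the insulin-cell ratio. By means, which the high cells raise, 1.48 and 1.30 RPKM would be carried and 20.4 and 13.7 RPKM were measured. The corresponding median in glucagon cells would be 1.15 RPKM, and all 33 glucagon cells lay above the ratio. Whether RNA from other cells entered these values was not tested. The somatostatin cell at 242 RPKM held 1127 RPKM of insulin RNA and 18.3 RPKM of Gcg, and the PP cell at 107 RPKM held 1665 and 258 RPKM.

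Depth was evened out to compare the shares of cells with Slc30a8. After each cell was thinned to 250000 reads, at least 1 Slc30a8 read remained in 98.7% of insulin, 100% of glucagon, 30.8% of somatostatin and 27.3% of PP cells. Shallower cells were left out of the thinned values, 7 of 593 in all. The unthinned shares of cells with a read were 99.7%, 100%, 92.3% and 72.7%, so most somatostatin and PP cells with a read held too few to remain after thinning.

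Mixed cells followed the hormones they held. Slc30a8 had a median of 424 RPKM in the 65 cells of insulin with glucagon, and 351 RPKM in the 8 cells of glucagon with PP. The 28 cells of insulin with somatostatin had a median of 320 RPKM and the 23 of insulin with PP 234 RPKM. The 16 cells of somatostatin with PP had a median of 1.65 RPKM and a range from 0 to 274 RPKM. Mixed cells that held insulin or glucagon thus stood near insulin cells, and those of somatostatin with PP near the 2 low classes. Whether a mixed cell was 1 cell, a captured pair or a cell with free RNA was not tested.

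**Figure D1:**
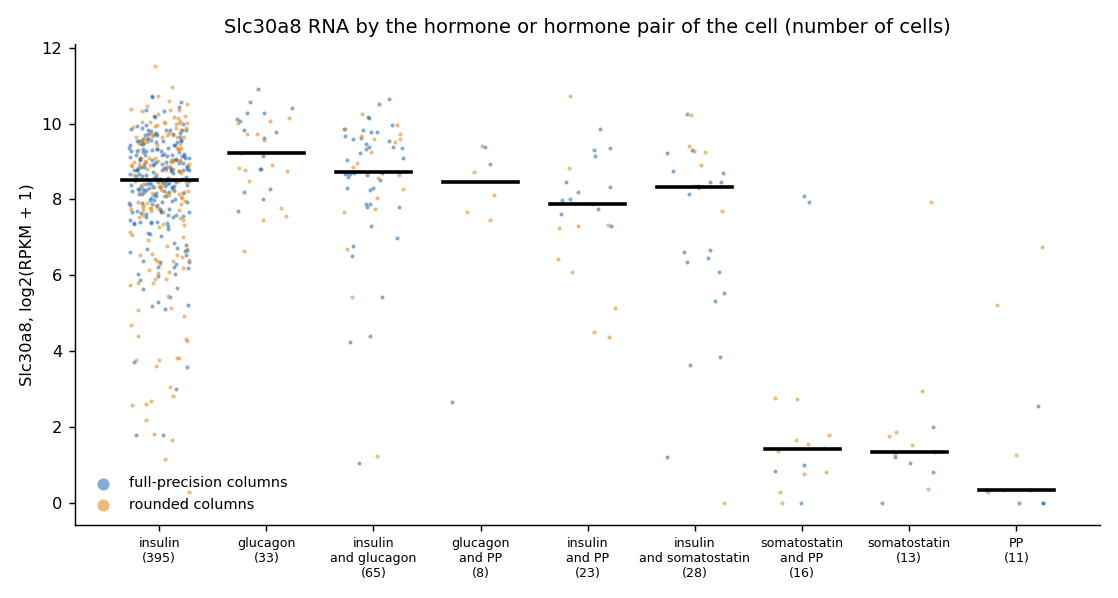
Slc30a8 RNA on a log2(RPKM + 1) axis for each cell, by its hormone class or, for mixed cells, by its 2 highest hormones; 1 point is 1 cell, bars are medians and colours are the 2 kinds of column (1 mixed cell of glucagon with somatostatin, at 937 RPKM, is not drawn). Groups with insulin or glucagon have medians from 234 to 601 RPKM, and the 3 groups with neither have medians from 0.274 to 1.65 RPKM.

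Insulin cells with little Slc30a8 were few. It was under 10 RPKM in 14 of 395, of which 11 were in rounded columns and 3 had immune markers. These 14 cells had a median of 2364 genes detected, against 5294 in the other 381 insulin cells, and hormones made up 19.6% of their RPKM against 45.5%. As a group they had fewer genes detected, though not every cell did, and the part of this in their Slc30a8 level was not tested.

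Among the 496 genes that averaged 100 RPKM or more in insulin cells, Slc30a8 was one of the less variable. Its coefficient of variation over cells was 0.836, the 423rd from the most variable, against a median of 1.07 for these genes. It ranked 73rd by mean RPKM in insulin cells and 51st in glucagon cells, but 2929th in somatostatin and 3224th in PP cells.

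The exporters of the early secretory pathway, Slc30a5 and Slc30a7, were at much lower levels and were not found in every cell. ZnT5 and ZnT7, their products, load zinc into the Golgi, where zinc enzymes mature. Slc30a5 averaged 19.9 RPKM in insulin cells (median 2.35, range 0 to 361 RPKM) and was at 1 RPKM or more in 223 of 395. Its mean was 14.7 RPKM in glucagon, 25.4 in somatostatin and 6.52 in PP cells, with medians of 0, 0.452 and 0 RPKM. The values of all 4 classes overlapped from 0 upwards, and each class SD exceeded its mean (42.2, 37.8, 62.4 and 11.6 RPKM). Without the highest cell the means were 9.54 RPKM in glucagon, 8.76 in somatostatin and 3.55 RPKM in PP cells. The log2 ratio to insulin cells was -1.15 in full-precision and 0.17 in rounded columns for glucagon cells, and 1.22 and -1.96 for somatostatin cells. The order of these classes was therefore not resolved, and only the PP ratio kept its direction (-1.67 and -1.23).

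Slc30a7 averaged 7.60 RPKM in insulin, 10.5 in glucagon, 4.00 in somatostatin and 4.52 RPKM in PP cells. It was at 1 RPKM or more in 182 of 395, 10 of 33, 4 of 13 and 3 of 11 cells. The glucagon mean rested on 1 cell at 192 RPKM, and the log2 ratio to insulin cells was 1.02 in full-precision and -0.94 in rounded columns. Without the highest cell the means were 4.84 RPKM in glucagon, 1.17 in somatostatin and 2.49 RPKM in PP cells. The order of the classes was therefore not resolved for this gene. Slc30a7 also overlaps Gm6649 and Mir669n in the annotation, and the counting of shared reads is not given.

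Slc30a9 encodes ZnT9, which is known as a transporter of mitochondria. It averaged 13.3 RPKM in insulin (203 of 395 cells at 1 RPKM or more), 9.71 in glucagon (14 of 33), 15.4 in somatostatin (6 of 13) and 1.64 RPKM in PP cells (2 of 11). The PP cells held 0 in 7 cells, then 0.186, 0.256, 4.41 and 13.2 RPKM. The log2 ratio was -2.44 in PP cells, with -2.04 in full-precision and -3.46 in rounded columns. In somatostatin cells it was 0.20 but changed direction between the kinds (-1.42 and 1.09) and with that rescaling (-0.15). Without the highest cell the means were 6.35 RPKM in glucagon, 9.06 in somatostatin and 0.485 RPKM in PP cells. PP cells were the lowest class for this gene, and all 11 lay below the upper quartile of insulin cells (13.6 RPKM), while 134 insulin cells also stood at 0.

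Slc39a14 encodes ZIP14, an importer of zinc, iron and manganese at the cell surface. It was close to absent, with a mean of 1.17 RPKM in insulin cells and at 1 RPKM or more in 55 of 395 (13.9%, interval 10.7 to 17.7%). The means in the other classes were 2.17, 1.83 and 1.88 RPKM in glucagon, somatostatin and PP cells. In these 3 classes it was at 1 RPKM or more in 5 of 33, 1 of 13 and 2 of 11 cells, so each mean came from a few cells and no order could be read. The log2 ratio to insulin cells changed direction between the kinds in glucagon (-0.07 and 1.18) and somatostatin cells (1.02 and -0.85).

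The positions of the transporter genes on GRCm38 are chr15:52295553-52335798 for Slc30a8, chr13:100802645-100833480 for Slc30a5, chr3:115938973-116007414 for Slc30a7, chr5:67306955-67356142 for Slc30a9 and chr14:70303467-70351452 for Slc39a14.

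**Figure D2:**
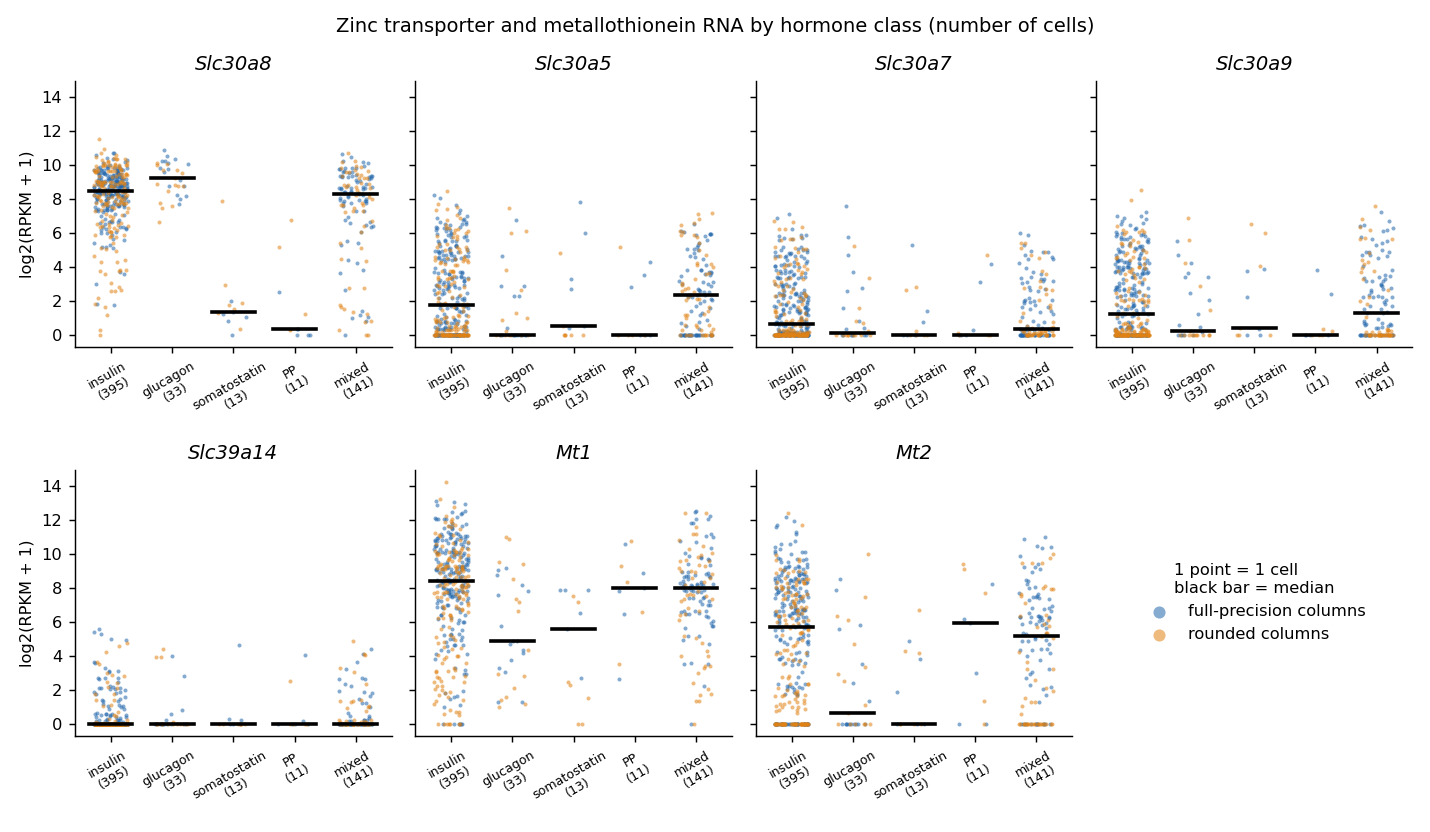
RNA of the 7 genes on a log2(RPKM + 1) axis in insulin, glucagon, somatostatin, PP and mixed cells, with the number of cells under each class; 1 point is 1 cell, black bars are medians, blue is full-precision and orange rounded columns. Slc30a8 separates insulin and glucagon cells from nearly all somatostatin and PP cells, Mt1 and Mt2 spread over the whole axis, and the other 4 genes are at or near 0 in many cells of every class.

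By mean RPKM in insulin cells Mt1 was the highest of the 7 genes and the 35th of all genes, though Slc30a8 had the higher median there (363 RPKM). Insulin cells averaged 926 RPKM (SD 1702 over cells) with a median of 339 RPKM, quartiles of 74.3 and 1050 RPKM and a highest cell of 19538 RPKM. It was at 1 RPKM or more in 377 of 395 (95.4%, interval 92.9 to 97.3%). Glucagon cells averaged 261 RPKM with a median of 28.0 RPKM, and ran from 0.942 to 2071 RPKM. Insulin cells were higher by median, but 8 of 33 glucagon cells lay above the insulin median.

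The 13 somatostatin cells held 0 in 2 cells, then 1.86, 3.79, 4.49, 5.36, 46.3, 91.0, 141, 182, 235, 238 and 239 RPKM of Mt1. No somatostatin cell reached the insulin median. The 11 PP cells held 5.26, 10.4, 87.0, 96.3, 228, 255, 319, 467, 639, 1561 and 1758 RPKM, which is the middle of the insulin range. By mean the order was insulin, PP, glucagon, somatostatin, and by median it was insulin, PP, somatostatin, glucagon. The median order changed between the kinds of column. In full-precision columns the medians were 456 RPKM in insulin, 241 in PP, 163 in somatostatin and 28.0 RPKM in glucagon cells. In rounded columns they were 246, 319, 3.79 and 58.4 RPKM. Glucagon and somatostatin cells were not separated from each other beyond their spread, and neither were insulin and PP cells.

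Mt2 followed the same order by mean at a lower level than Mt1. By median the order was PP (59.1 RPKM), insulin, glucagon and somatostatin (0 RPKM). Insulin cells averaged 234 RPKM with a median of 51.8 RPKM, and 296 of 395 were at 1 RPKM or more (74.9%, interval 70.4 to 79.1%). Glucagon cells averaged 65.0 RPKM with a median of 0.553 RPKM, and 16 of 33 were at 1 RPKM or more. Without the highest cell the mean was 34.4 RPKM in glucagon and 6.60 RPKM in somatostatin cells, against 14.0 RPKM with it in the latter. The 13 somatostatin cells held 0 in 7 cells, then 2.59, 12.8, 16.9, 18.4, 28.6 and 103 RPKM. The 11 PP cells held 0 in 3 cells, then 1.58, 7.08, 59.1, 72.4, 211, 300.5, 557 and 666 RPKM. Somatostatin cells were the lowest class by mean, but 6 of 13 were at 1 RPKM or more, a share like that of glucagon cells. Their median was 1.30 RPKM in full-precision and 0 RPKM in rounded columns, against 0 and 2.90 RPKM in glucagon cells. Glucagon and somatostatin cells were thus not separated, and the ranges of all classes overlapped from 0 upwards.

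The log2 ratios to insulin cells were -1.82 for Mt1 and -1.84 for Mt2 in glucagon cells, and -3.33 and -3.97 in somatostatin cells. In glucagon cells they were -2.84 and -2.76 within full-precision columns and -1.02 and -0.78 within rounded ones, so the Mt2 ratio was not past 2-fold in the latter. In somatostatin cells they were -2.85 and -5.15, and -4.00 and -2.89. Both genes were thus lower in both kinds of column. In PP cells the ratios were -0.91 for Mt1 and -0.46 for Mt2, and the Mt2 ratio changed direction between the kinds (-2.00 and 0.91).

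Of the 7 genes, 2 were called lower in glucagon cells (Mt1 and Mt2), 3 in somatostatin cells (Slc30a8, Mt1 and Mt2) and 3 in PP cells (Slc30a8, Slc30a5 and Slc30a9), and none was called higher. The median log2 ratio of the 7 was -0.41, -0.78 and -0.91, beside -0.17, -0.02 and -0.30 over all genes compared. Both Slc30a5 and Slc30a9 in PP cells came from genes at 0 in 7 of 11 cells. The share of all genes called lower was 21.1% in glucagon, 26.0% in somatostatin and 30.4% in PP cells. In either direction it was 31.8%, 47.2% and 47.3%. Counts of 2 or 3 of 7 are too small to be set apart from these shares. They say nothing particular of the 7 genes as a set. In the mixed cells 0 of 7 were called, where 5.81% of genes were called higher and 1.98% lower (7.79% in all). Fewer cells with a transcript and less transcript per cell both enter a class mean, and the share of cells is given for that reason.

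A list of 31 further genes of zinc, iron and copper handling was examined in the same way. Of those compared, 0 were called higher and 8 of 21 lower in glucagon cells, 5 higher and 6 of 20 lower in somatostatin cells, and 2 higher and 7 of 20 lower in PP cells. Their median log2 ratios were -0.83, -0.43 and -0.65, beside -0.17, -0.02 and -0.30 over all genes. All genes compared were called higher and lower at 10.7% and 21.1% in glucagon, 21.2% and 26.0% in somatostatin, and 16.8% and 30.4% in PP cells. Many of these genes were near the limit of detection.

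Among the remaining Slc30 genes, Slc30a6 and Slc30a4 were the highest in insulin cells, at 11.1 and 5.46 RPKM, followed by Slc30a1 at 1.69 RPKM. Slc30a6 encodes the partner that ZnT5 needs for transport, Slc30a4 a transporter of endosomes and lysosomes, and Slc30a1 the exporter of the cell surface. Slc30a6 averaged 2.59 RPKM in glucagon, 12.9 in somatostatin and 1.39 RPKM in PP cells, and without 1 somatostatin cell at 163 RPKM, which had non-endocrine markers, the somatostatin mean was 0.406 RPKM. The Slc30a6 ratio in somatostatin cells changed direction between the kinds (log2 1.27 and -3.60), as did that of Slc30a4 in glucagon cells (-1.19 and 0.88). Slc30a4 averaged 4.74 RPKM in glucagon cells, 0.610 in somatostatin and 0.0952 RPKM in PP cells. It was at 1 RPKM or more in 95 of 395 insulin, 2 of 13 somatostatin and 0 of 11 PP cells, and a count of 0 there leaves room for a share of up to 27.3%. Slc30a2, Slc30a3 and Slc30a10 were listed at 0 in all 593 cells.

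Among the importers, Slc39a7 was the highest in insulin cells. Its product, ZIP7, releases zinc from the endoplasmic reticulum to the cytosol. It averaged 49.8 RPKM in insulin cells and was at 1 RPKM or more in 335 of 395, with means of 27.7, 24.8 and 25.8 RPKM in glucagon, somatostatin and PP cells. None of these 3 log2 ratios (-0.83, -0.98 and -0.92) was past 2-fold, and all passed it without the highest cell of the class (-1.14, -1.58 and -1.33). All insulin cells were kept in the latter, so leaving out that cell could only lower these ratios. All 3 were also past 2-fold in rounded columns (-1.21, -2.09 and -1.88) and not in full-precision ones (-0.56, -0.34 and -0.50).

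Slc39a1, which encodes the surface importer ZIP1, averaged 14.0 RPKM in insulin and 4.20 RPKM in glucagon cells. Its share of cells at 1 RPKM or more was 66.3% and 33.3%. Slc39a9 averaged 3.25 RPKM in glucagon and 8.72 RPKM in insulin cells, with 36.4% and 48.4% of cells at 1 RPKM or more, and its ratio was not past 2-fold in rounded columns (log2 -0.52). Slc39a13 averaged 2.37 and 6.25 RPKM with like shares of cells (24.2% and 23.8%), and its ratio was not past 2-fold in full-precision columns (log2 -0.53). Slc39a6, the gene of ZIP6, averaged 11.9 RPKM in insulin, 28.1 in somatostatin and 26.4 RPKM in PP cells. Without the highest cell the last 2 means were 13.6 and 8.37 RPKM, so the higher means rested on 1 cell each. In somatostatin cells the Slc39a6 ratio was -0.80 in full-precision and 2.85 in rounded columns.

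Among insulin cells, Mt1 and Mt2 moved together, and no transporter showed a close relation to them. Spearman's rho between Mt1 and Mt2 was 0.83 over 395 cells, 0.87 within full-precision and 0.77 within rounded columns. It was 0.82 after rank regression on the number of genes detected and the mitochondrial share of RPKM. All rho values here describe cells that share their library preparation and differ in depth and genes detected, and they carry no p. The other 20 pairs of the 7 genes had rho between -0.19 and 0.20. Slc30a5, Slc30a7, Slc30a9 and Slc39a14 were at 0 in 111, 124, 134 and 306 of the 395 cells. A low rho of their pairs therefore cannot show that these genes are unrelated. Slc39a14 was at 1 RPKM or more in only 16.4% of full-precision and 10.7% of rounded cells.

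**Figure D3:**
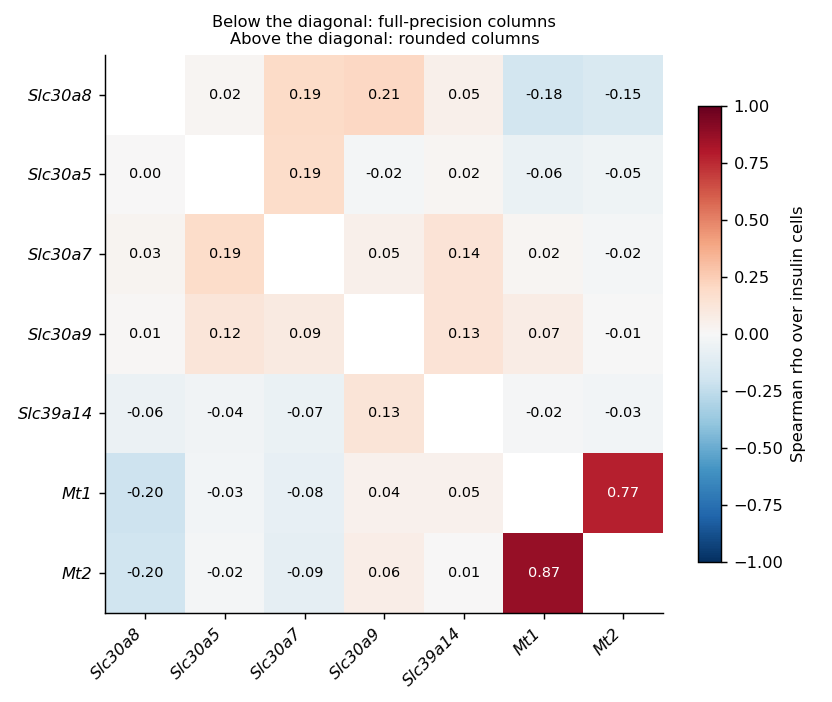
Spearman's rho for each pair of the 7 genes over insulin cells, with the 226 full-precision cells below the diagonal and the 169 rounded cells above it; colour runs from -1 to 1. Mt1 with Mt2 stands at 0.87 and 0.77, and every other pair lies between -0.20 and 0.21 in both kinds of column.

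Cell by cell, Mt2 was seen almost only where Mt1 was. Mt1 itself was at 1 RPKM or more in 377 of 395 insulin cells, so a gene unrelated to it would also be seen mostly with it. Both were at 1 RPKM or more in 293 insulin cells, Mt1 alone in 84, Mt2 alone in 3 and neither in 15. In the 293 cells with both, Mt2 was the lower of the pair in 274, and the median ratio of Mt2 to Mt1 RPKM was 0.204 (quartiles 0.0896 and 0.351). The 84 cells with Mt1 alone had a median Mt1 of 26.3 RPKM, against 586 RPKM in the cells with both, and 60 of them were under 100 RPKM. Cells with Mt1 alone were thus mostly cells with little Mt1.

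**Figure D4:**
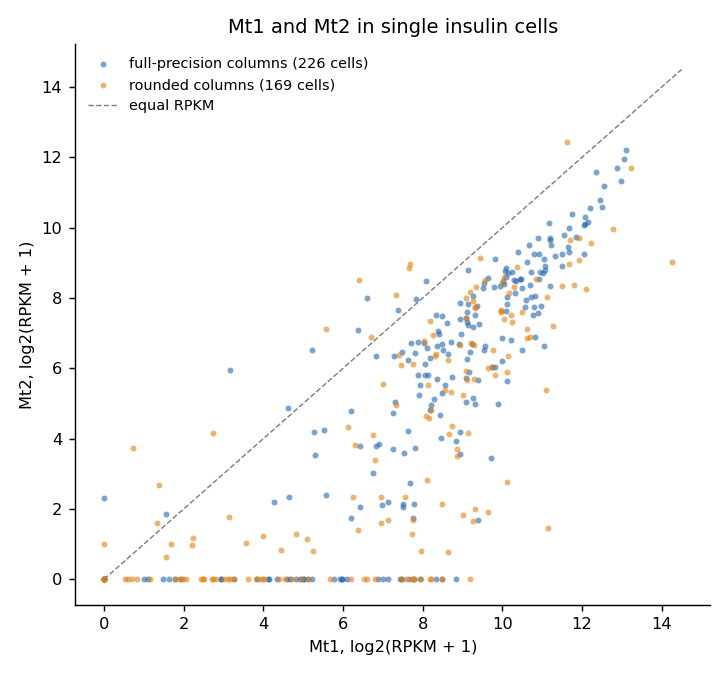
Mt1 against Mt2 in the 395 insulin cells, both on a log2(RPKM + 1) axis; 1 point is 1 cell, blue is full-precision and orange rounded columns, and the dashed line marks equal RPKM. Most cells lie below the line and along a common slope, with 84 cells holding Mt1 alone near the lower edge.

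Metallothionein RNA was concentrated in few cells of the insulin class. For each gene, the 40 insulin cells with the most held 52.3% of all Mt1 and 62.0% of all Mt2 RPKM, against 28.2% of Slc30a8. The cells below the median held 5.84%, 1.75% and 19.4%. The coefficient of variation was 1.84 for Mt1 and 2.44 for Mt2, the 33rd and the 19th most variable of the 496 genes that averaged 100 RPKM or more. Within full-precision columns the ranks were 24th and 13th of 525, and within rounded columns 29th and 17th of 453. The class rule set no lowest level of hormone RNA. Some of the insulin cells with the most Mt1 held very little of it, and others did not. In the 99 insulin cells with the most Mt1, hormones made up a median of 31.6% of RPKM, against 45.1% in all insulin cells. Whether the concentration holds without cells low in hormone RNA was not tested.

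Insulin cells were laid out in 4 groups of near-equal size by Mt1 to show other values beside it. Of the 99, 99, 98 and 99 cells, 44, 56, 57 and 69 were in full-precision columns. Insulin cells of these columns had a median Mt1 of 456 RPKM and a median hormone share of 39.0%. Those of rounded columns had 246 RPKM and 53.9%. The group medians therefore mix Mt1 with the kind of column. Median Mt1 was 7.92, 204, 581 and 2007 RPKM from the lowest group to the highest, and median Mt2 was 0, 23.1, 91.0 and 425 RPKM. Median Slc30a8 was 440, 448, 371 and 289 RPKM. The rho of Slc30a8 with Mt1 was -0.19 (-0.20 and -0.18 within the kinds), a weak relation that kept its direction.

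The hormone share of RPKM had medians of 49.7%, 47.1%, 48.3% and 31.6% over these groups, and the mitochondrial share 9.75%, 10.9%, 10.9% and 14.1%. Mt1 had a rho of -0.32 with the hormone share and of 0.17 with the mitochondrial share. These relations were those of the full-precision columns (-0.49 and 0.35) and were near 0 in the rounded ones (-0.03 and -0.08). RPKM is a share of a cell's reads, so a gene's level and the hormone share are not independent. With RPKM rescaled to the reads outside hormone and mitochondrial genes, rho was 0.82 for Mt1 with Mt2 and -0.22 for Slc30a8 with Mt1.

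Immune markers stood out in a few cells of the upper groups. At least 3 of the 7 immune markers were at 10 RPKM or more in 0, 1, 2 and 8 cells of the 4 groups, and the median of their summed level was 0.634, 0.658, 0.105 and 0 RPKM (highest 177, 10398, 14570 and 19172 RPKM). The 11 insulin cells with immune markers had a median Mt1 of 1188 RPKM and a median Slc30a8 of 69.0 RPKM. Without all cells that had non-endocrine markers, the rho of Mt1 with Mt2 and of Slc30a8 with Mt1 were 0.84 and -0.17.

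The genes whose levels followed Mt1 most closely were ranked by the lower of their rho values in the 2 kinds of column, over 5725 genes at 1 RPKM or more in at least 25% of insulin cells of each kind. Mt2 was first, far ahead of the rest. Then came the selenoprotein gene Selenow (0.50 and 0.35), the ribosomal protein gene Rps18 (0.37 and 0.34), Ftl1 of the iron store ferritin (0.55 and 0.34), and the ribosomal protein genes Rpl34, Rpl37, Rps26, Rps14 and Rps28. Genes at a rho of 0.3 or more with Mt1 made up 0.664% of those compared, and 0.0874% in both kinds of column.

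The genes named after Mt2 share a short length. The lengths that the RPKM values imply ran from 391 bases (Rps28) to 970 bases (Ftl1), against a median of 2544 bases for all genes compared, and Mt1 and Mt2 themselves had 760 and 556 bases. Across genes, length and rho with Mt1 had a rank correlation of -0.24 (-0.31 and -0.23 within the kinds). The 86 ribosomal protein genes compared had a median rho with Mt1 of 0.24 (0.29 and 0.15). The median was 0.07 over all genes compared (0.05 and 0.02) and 0.10 over the short ones (limit 1000 bases). The ribosomal group was chosen after its values were seen in this same ranking, so it is no independent support for a link. The part of transcript length in these values was not tested.

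Slc30a8 had other companions, all at modest values. Ranked the same way, the first were Il1r1, the receptor of interleukin-1 (0.32 and 0.35), the beta-oxidation enzyme gene Hadh (0.31 and 0.36), the glucose transporter gene Slc2a2 (0.31 and 0.43), the granule protein gene Scg2 (0.31 and 0.40) and Ece1 (0.31 and 0.30), an endothelin converting enzyme. Genes at a rho of 0.3 or more made up 0.349% of those compared with Slc30a8, and 0.0699% in both kinds of column. Length and rho with Slc30a8 had a rank correlation of 0.41 across genes, the opposite sign of that with Mt1, and the 86 ribosomal protein genes had a median rho of -0.08.

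A list of 10 genes held genes of the insulin granule and the beta cell gene G6pc2. Its median rho values with Slc30a8 and with Mt1 were of opposite sign, though near 0 with Mt1 in rounded columns. These 10 genes include Ins1 and Ins2, which the class rule used, so their values are not independent of the hormone share. With Slc30a8, whose product sits in the granule membrane, their median rho was 0.21 (0.21 and 0.28 within the kinds), beside 0.07 for all genes compared (0.02 and 0.11). Of the 10 genes, 7 were above the 90th percentile of all genes, G6pc2 (0.27) among them. With Mt1 their median rho was -0.18 (-0.35 and -0.07), beside 0.07 for all genes (0.05 and 0.02), and none was above the 90th percentile. In rounded columns the values with Mt1 ran from -0.16 (Pcsk1) to 0.08 (Scg2), on both sides of 0. The granule genes with the highest values with Mt1 were Chgb (-0.14 and -0.10) and Scg2 (-0.18 and 0.08), which encode granins of the granule core.

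Lists of genes known for the stimuli that induce metallothioneins had median rho values with Mt1 of at most 0.23 over all insulin cells. Only part of several lists was compared, so the values do not speak for whole lists. Compared were 6 of 8 integrated stress response, 3 of 8 hypoxia and 4 of 7 acute phase and interferon genes. The numbers were 5 of 10 for oxidative stress, 3 of 7 for heat shock and 6 of 9 for the glucocorticoid response. The integrated stress response had a median rho with Mt1 of 0.18 over 6 genes (0.25 and 0.13 within the kinds), of which 3 were above the 90th percentile of all genes (0.17). Its member Nupr1, a stress-induced nuclear protein, had 0.47 in full-precision and 0.17 in rounded columns, and Ddit3, the gene of CHOP, had 0.33 and 0.13. Hypoxia genes had a median of 0.23 over 3 genes (0.31 and 0.11), all 3 above that percentile over all cells and 1 of 3 in rounded columns, with Bnip3 at 0.21 and 0.17 and Vegfa at 0.31 and 0.11. The acute phase and interferon list had a median of 0.19 over 4 genes (0.23 and 0.12), 2 of them above it, with Cebpb at 0.30 and 0.18 and the antigen presentation gene B2m at 0.36 and 0.15.

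Oxidative stress genes had a median rho with Mt1 of 0.16 over 5 genes (0.16 and 0.08), 1 of them above the percentile, led by Sqstm1, an autophagy receptor (0.32 and 0.21), and Gclm of glutathione synthesis (0.16 and 0.08). Heat shock genes had a median of 0.16 over 3 genes (0.08 and 0.22), 1 of them above it, with Hsp90aa1 at 0.33 and 0.22 and Hspa8 at 0.08 and 0.22. Immediate early genes had a median of 0.12 over 8 genes but differed between the kinds, at 0.00 and 0.20. Over all cells and in full-precision columns 0 of these 8 were above the 90th percentile, and in rounded columns 5 were. The first members of the immediate early list were Junb (0.08 and 0.18) and Zfp36 (0.06 and 0.13). Glucocorticoid response genes had a median of 0.07 over 6 genes, the level of all genes compared, with Nfkbia at 0.10 and 0.05 and Fkbp5 at 0.27 and 0.04. Endoplasmic reticulum folding genes had a median of -0.05 over 8 genes, with Xbp1 at 0.13 and 0.05 and Creld2 at -0.02 and -0.07.

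**Figure D5:**
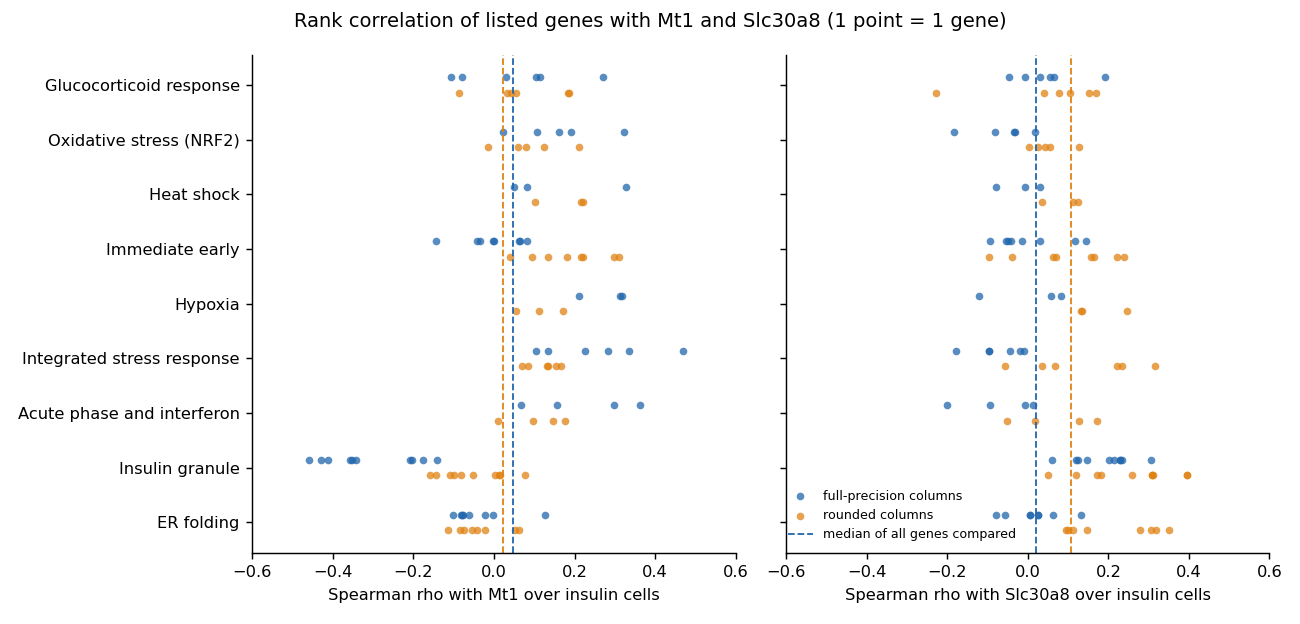
Spearman's rho over insulin cells with Mt1 (left) and Slc30a8 (right) for genes of 9 lists; 1 point is 1 gene within 1 kind of column, blue full-precision and orange rounded, and dashed lines are the medians of all genes compared within each kind. Genes of the insulin granule list, which also holds the beta cell gene G6pc2, lie to the left with Mt1 in full-precision columns (median -0.35). In rounded ones they lie near 0 (median -0.07). With Slc30a8 they lie to the right in both kinds (medians 0.21 and 0.28).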

How the data were processed

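Per the labels' protocols, single islet cells were captured and amplified on the C1 system with the SMARTer kit and libraries were made with Nextera XT. The authors deposited 1 table of RPKM, 1 column per cell, and per the submitters' processing notes they used CASAVA 1.8.2, FastQC and GRCm38 (mm10). No source used here names the aligner, the read counter, the annotation or a strand setting. Gene IDs were matched to RefSeq symbols (GRCm38.p6) for 39725 of 44448 genes.

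RPKM are not counts, so no count model was used, and with all cells in 1 sample there is no test. Whole reads were recovered from the RPKM steps for 23101 of 23143 genes: 100% of values under 100 reads in full-precision and 99.94% in rounded columns were within 0.05 of a whole read. Recovered reads served only for depth, gene lengths and thinning to 250000 reads. A floor of 3 counts, or 3 cells of the class, is the smallest share a count of 0 excludes (23.1% of 13 cells, 27.3% of 11). Ratios are log2 of class mean RPKM plus a pseudocount of 1, over genes whose average of both class means was at least 1 RPKM. Correlations are Spearman's rho.

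Named genes are the 7 themselves; of the 31 others, those reaching 5 RPKM on average in a hormone class and differing by 2-fold, and the 3 highest of each family in insulin cells; the 10 genes most like Mt1 (1 of them is not reported here) and the 5 most like Slc30a8; and the first 2 of each stimulus list by the lower rho with Mt1. The members and lists were chosen with earlier results of these data known. Alternatives changed the pseudocount, averaging, filters, scaling, hormone share, kind of column and cells left out. Python 3.11.15, pandas 2.3.3 and SciPy 1.17.1 were used, and the scripts were tested on simulated data. Coding sequences are from GENCODE M21.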

Additional observations from a re-analysis of the deposited data

How the results depend on the processing

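The direction of Slc30a8 and Mt1 in somatostatin cells, of Slc30a8 in PP cells, and of Slc30a8, Mt1 and Mt2 in glucagon cells was the same in all 13 alternatives. Their sizes were less firm, since the somatostatin and PP classes hold 13 and 11 cells. For Slc30a8 in somatostatin cells the log2 ratio was -7.16 from class medians, -6.24 from the mean of log2 values, -8.50 at a hormone share of 99% (1 cell left), -7.59 in full-precision and -3.62 in rounded columns, and -7.27 without the highest cell, an alternative added after seeing the data. For Slc30a8 in PP cells it was -4.28 with a pseudocount of 10, -8.16 from medians, -6.54 from the mean of log2 values, -3.53 at a hormone share of 75%, -7.85 and -3.96 in full-precision and rounded columns, and -6.40 without the highest cell. For Mt1 in somatostatin cells it was -2.60 at 99% (1 cell) and -4.00 in rounded columns. The share of insulin cells with Mt2 was 64.1% at a threshold of 10 RPKM, 66.0% with at least 1 read of 250000, and 81.4% and 66.3% in full-precision and rounded columns.

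Spearman's rho of Mt1 with Mt2 lay between 0.77 and 0.87, and that of Slc30a8 with Mt1 between -0.25 and -0.12, in 9 alternatives. In PP cells the directions of Mt1 (range -1.33 to 0.06) and Mt2 (-2.00 to 0.91) were not kept, and Slc30a5 was past 2-fold in 9 of 13 alternatives. Of 357 log2 ratios recomputed for the 7 genes, 271 moved by less than 1.5-fold, as did 33 of 48 shares of all genes called. Those shares, 31.8%, 47.2%, 47.3% and 7.79% in glucagon, somatostatin, PP and mixed cells, were 5.70%, 13.1%, 11.2% and 1.02% with a pseudocount of 10, 18.4%, 24.5%, 26.4% and 2.36% from the mean of log2 values, and 9.47%, 14.0%, 14.1% and 2.51% with no filter on low values. For somatostatin cells the share was 92.5% at a hormone share of 99%, and for mixed cells it was 13.8% from medians and 25.0% in rounded columns. Of 189 rho values 184 moved by under 0.1. Causes were not tested. No paired analysis was possible because the cells carry no replicate numbers that groups share.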

Other observations

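Of the iron and copper genes of the same list, Ftl1, Atp7a and Slc31a1 were past 2-fold lower in glucagon cells, where 21.1% of all genes were, and Slc11a2, Slc40a1, Fth1, Tfrc and Atox1 were not past 2-fold there. Ftl1, the light chain of the iron store ferritin, averaged 2784 RPKM in insulin cells and 749.8 RPKM in glucagon cells, with medians of 2015 and 624 RPKM. It was at 1273 RPKM in PP cells, a log2 ratio of -1.13 that was -0.66 in full-precision columns, and at 706 RPKM without the highest PP cell, which had non-endocrine markers. The heavy chain gene Fth1 averaged 1009 RPKM in insulin and 565 RPKM in glucagon cells, a log2 ratio of -0.84 that was not past 2-fold. Atp7a, the copper pump of the Golgi, was lower than in insulin cells (11.7 RPKM) in all 3 other hormone classes, at 4.78, 2.45 and 0.881 RPKM, and was at 1 RPKM or more in 237 of 395 insulin cells against 11 of 33, 3 of 13 and 2 of 11. Its ratio in glucagon cells was past 2-fold in full-precision columns and not in rounded ones (log2 -2.28 and -0.24). Slc31a1, the copper importer, averaged 10.1 RPKM in insulin and 3.23 RPKM in glucagon cells, likewise past 2-fold only in full-precision columns (log2 -2.04 and -0.44). Slc40a1, the iron exporter ferroportin, averaged 19.2 RPKM in insulin and 7.79 RPKM in somatostatin cells, or 1.65 RPKM without 1 cell at 81.4 RPKM, and its ratio changed direction between the kinds (log2 -2.72 and 0.40).

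The 5 genes of this list called higher in somatostatin cells each rested on 1 cell. Tfrc, the transferrin receptor, averaged 124 RPKM with a highest cell of 1407 RPKM, and 16.7 RPKM without it, against 18.1 RPKM in insulin cells. Slc39a10 averaged 30.4 RPKM with 1 cell at 395 RPKM and 0.0419 RPKM without it. Gpr39, a zinc-sensing receptor, averaged 6.58 RPKM and 2.24 RPKM without its highest cell. Fth1 averaged 2238 RPKM and 692 RPKM without its highest cell, which carried immune markers, and Slc39a6 averaged 28.1 and 13.6 RPKM. Without these cells none of the 5 was past 2-fold higher. In PP cells Slc11a2, a transporter of iron, averaged 7.61 RPKM against 1.58 RPKM in insulin cells, was at 1 RPKM or more in 6 of 11 cells, and stayed past 2-fold without its highest cell (log2 ratio 1.03). Tfrc was low there, at 1.87 RPKM.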
